A study of Mus musculus with 2 samples.

Results

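Deubiquitinating enzymes are proteases that take ubiquitin off proteins. Here 56 autosomal genes of this class were examined among the 12707 genes listed for CD45-negative cells of Py8119 mammary tumours. They were chosen by gene name: the USP, OTUD, OTUB and UCHL names together with Cyld, Bap1, Yod1, Vcpip1, Atxn3 and Stambp, with Usp18 and genes of the X chromosome left out. The name rule itself uses no measured value, though it was set with earlier results of these data known. The study injected Py8119 cells, a mouse line from a mammary tumour of the MMTV-PyMT model with mesenchymal character, into mice with wild-type Mtdh or with Mtdh knocked out. Live CD45-negative cells were sorted from the dissociated tumours, and their RNA was sequenced after removal of ribosomal RNA. The injected cells carried wild-type Mtdh in both groups, so the groups differ in the host. There was 1 library per group, and the labels give no age, strain, kind of Mtdh allele or number of mice for either. No difference below has a replicate check: each describes this pair of libraries, not the host genotypes.

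Ubiquitin is attached to proteins singly or as chains, and the chain type decides whether the protein is degraded, moved or used as a signalling platform. Deubiquitinating enzymes trim or remove these chains, and so set the lifetime of their targets, recycle ubiquitin at the proteasome and end signals that run through ubiquitin chains, such as NF-kB activation. The USP, OTU, UCH and Josephin families are cysteine proteases, while the JAMM family uses zinc. In tumour cells members of the class are known as regulators of p53, MYC, DNA repair and inflammatory signalling.

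The deposited values are log2(FPKM + 1), where FPKM is fragments per kilobase of gene, scaled to library size. The length is that of the whole genomic span, introns included, so genes with long introns have low values. Reads were therefore recovered from the values, 26069282 with the wild-type host and 23381731 with the knockout host. A fold below is a ratio of shares of all recovered reads, knockout host over wild-type host. Its 95% counting interval is an exact conditional binomial (Clopper-Pearson) interval and covers counting error only, since reads amplified by PCR are not independent molecules. The mesenchymal markers fixed for the tumour line were present in both libraries (5 of 5, summing to 3636 and 3369 RPM, reads scaled to a total of 1000000). The leukocyte markers, 6 of 7 listed, summed to 9.70 and 12.6, and the macrophage markers, 6 of 6, to 164.1 and 207.8. The endothelial markers, 3 of 5, summed to 18.3 and 14.2, but went opposite ways. Their reads were 1 and 146 for Cdh5, 348 and 58 for Plvap, and 129 and 128 for Pecam1. Fibroblast markers, 4 of 5, summed to 930.4 and 349.2. All 4 were on the lower side, but unequally, with Col1a1 at 618.0 and 88.1 RPM and Pdgfra at 223.8 and 216.2. Pericyte markers, 3 of 5, summed to 387.1 and 82.97, with Cspg4 at 190 reads and listed at 0. Epithelial markers, 5 of 5, summed to 196.4 and 299.9, and of the T and NK cell markers 1 of 5 was listed, at 0.259 and 2.27. Mtdh itself, carried by the tumour cells of both groups, had 28376 and 23130 reads. The part that such cells have in the values of the deubiquitinating enzymes was not tested. In bulk RNA, fewer cells of a type and less RNA per cell cannot be told apart.

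Most deubiquitinating enzyme genes were at nearly the same level in both libraries. Of the 54 genes with 100 or more reads over both libraries, 26 were above a log2 read ratio of 0 and 28 were below. The middle of these log2 read ratios, their median, lay at -0.03 (quartiles -0.20 and 0.27), beside -0.06 (quartiles -0.47 and 0.32) over all 10647 genes counted in the same way. The sign of so small a median carries no direction: it was 0.03 with library scaling by a trimmed mean of M-values, under which 28 genes were above 0 and 26 below, Usp25 and Usp36 having crossed. Summed over the class, the genes took 0.626% of reads with the wild-type host and 0.617% with the knockout host. Between 1000 and 5000 reads, 28.3% of all genes lay past 1.5-fold in either direction. Of the 28 genes of the class in that range 4 did, and no other of the 46 with 1000 or more reads. These were Yod1, an enzyme of protein quality control at the endoplasmic reticulum (3.20-fold higher in the knockout-host library, or 1.64-fold when summed with Pfkfb2, which covers it on the other strand), Stambp, an endosomal protease (1.75-fold higher), Otud1, a regulator of inflammatory signalling (1.66-fold higher), and Usp45, a DNA repair enzyme (1.58-fold lower).

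Counted by size, 4 of the 54 were 2-fold or more higher in the knockout-host library (Usp43, Yod1, Usp2 and Usp35), against 8.39% of all genes. On the other side 2 were 2-fold or more lower (Otub2 and Usp29), against 11.3% of all genes. Usp29 only just passed the limit, with 107 reads over both libraries, and neither of its values was a whole number of reads. With 1.5-fold as the limit, 7 were higher (15.7% of all genes) and 4 were lower (20.8% of all genes), and 43 lay between. The 3 added on the higher side were Usp49, Stambp and Otud1, and the 2 added on the lower side were Uchl3 and Usp45. On the deposited scale 33 of the 56 genes had a mean log2(FPKM + 1) of 1 or more. Of these only Yod1 was higher by 1 or more, where 2.31% of all genes were, and 0 were lower, where 2.64% of all genes were.

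**Figure D1:**
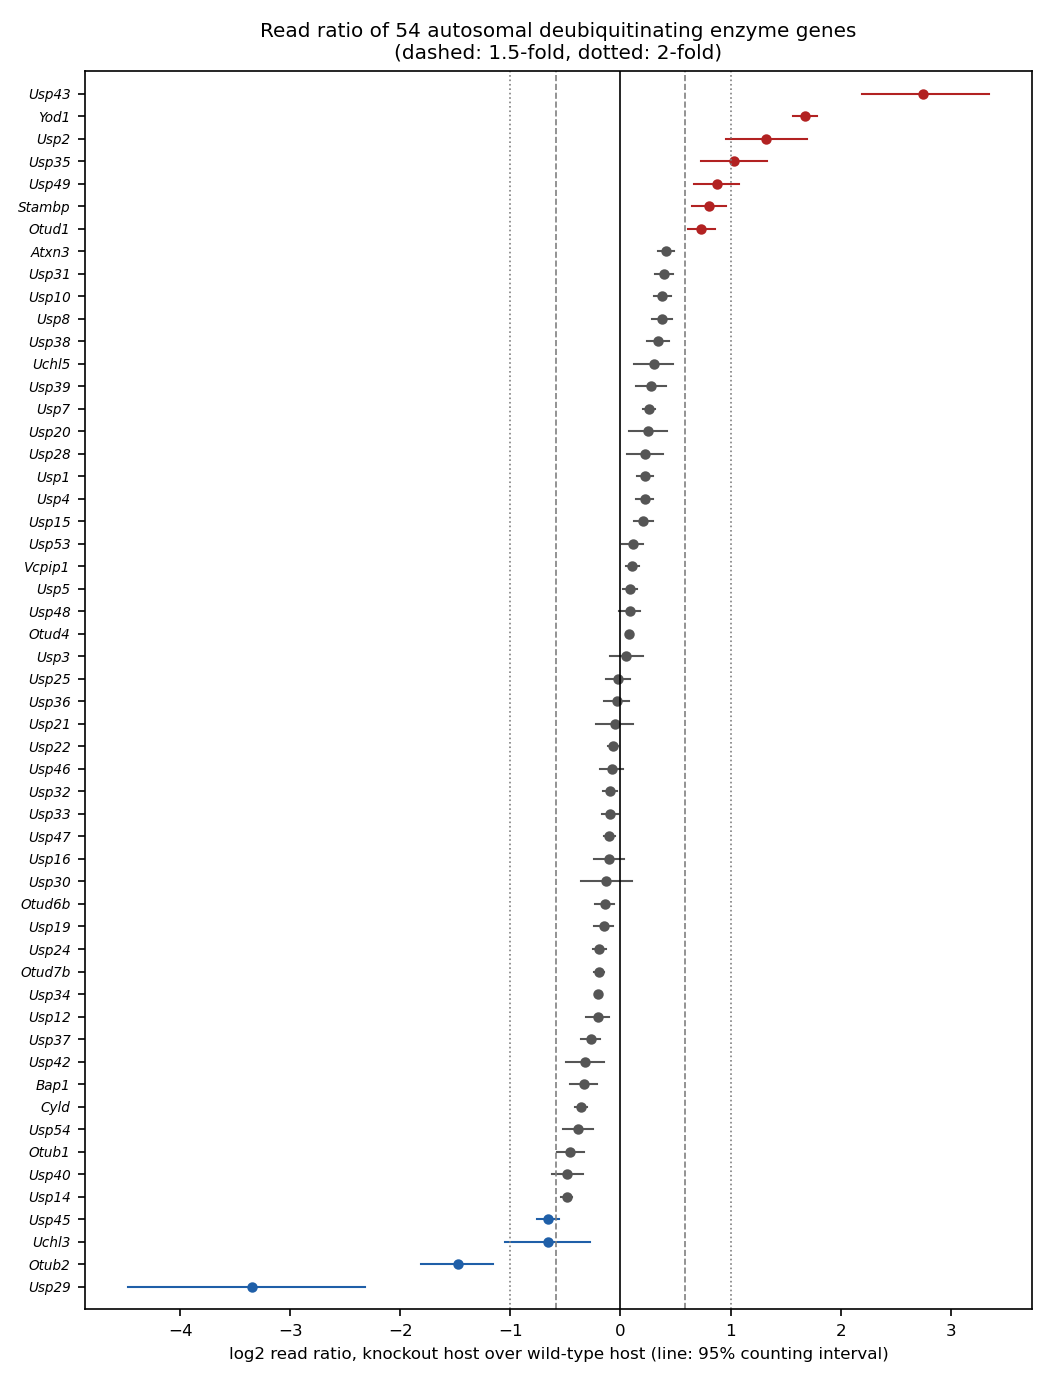
Log2 read ratio (knockout host over wild-type host, x axis) of the 54 genes with 100 or more reads, ordered by ratio, where points are the ratios and lines the 95% counting intervals of 1 library against 1. Red points are 1.5-fold or more higher, blue points 1.5-fold or more lower, and the 43 grey points lie between the dashed lines.

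Depth went with the size of the ratio, in this class and in the table as a whole. Among all genes with 100 to 1000 reads, 61.3% were past 1.5-fold in either direction, and 7 of 8 deubiquitinating enzyme genes were. Between 1000 and 5000 reads these values were 28.3% and 4 of 28, and between 5000 and 20000 reads 8.98% and 0 of 16. The counting intervals excluded a ratio of 1 for 46 of the 54 genes, 24 of them above and 22 below, and for 82.2% of all genes. Across the 54 genes Spearman's rho between total reads and the size of the log2 read ratio was -0.43, given as a description, since both values come from the same 2 libraries.

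**Figure D2:**
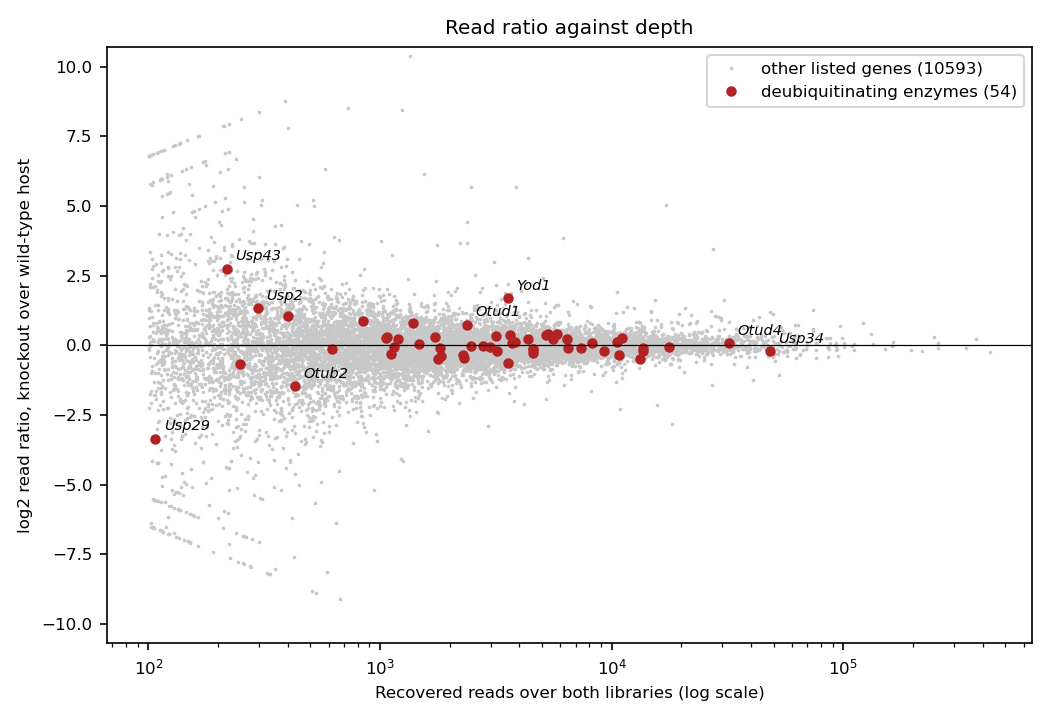
Log2 read ratio (y axis) against recovered reads over both libraries (x axis, log scale) for the 54 deubiquitinating enzyme genes in red and the other listed genes with 100 or more reads in grey. Most red points above 1000 reads lie close to 0, with Yod1 highest among them, and the widest ratios belong to genes with few reads.

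Among the OTU enzymes, a family of chain-selective cysteine proteases, Yod1 and Otud1 were higher and Otub2 was lower. Yod1 cuts ubiquitin from substrates of the segregase p97 (Vcp). Its reads were 921 in the wild-type-host library and 2643 in the knockout-host library, FPKM 5.02 and 16.1, which is 3.20-fold (95% counting interval 2.97 to 3.45). This was the highest ratio among genes of the class with 1000 or more reads. Yod1 (ENSMUSG00000046404, mm39 chromosome 1, 130645064 to 130652095, plus strand) lies wholly within the span of Pfkfb2 on the other strand, which went the other way with 1780 and 1340 reads. The value of Yod1 in the wild-type-host library was not a whole number of reads, and strand handling is not given in the sources used here. Summed with Pfkfb2, the locus was 1.64-fold higher (95% counting interval 1.57 to 1.73).

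Otud1, a single-exon gene whose product trims chains in inflammatory and antiviral signalling, had 951 and 1419 reads. Its FPKM was 12.9 and 21.4, a ratio of 1.66 (95% counting interval 1.53 to 1.81) and a difference of 0.69 in deposited log2 values. It shares no bases with another listed gene (ENSMUSG00000043415, mm39 chromosome 2, 19662563 to 19665394, plus strand). Otub2, a small OTU enzyme, had 326 and 105 reads, 2.78-fold lower (95% counting interval 2.23 to 3.50). Its relative Otub1, which also blocks E2 enzymes without cutting chains, had 1390 and 910 reads, 1.37-fold lower (95% counting interval 1.26 to 1.49). Both OTUB genes were thus on the lower side, and per kilobase of exon Otub2 made up 11.6% of the pair in the wild-type host and 6.08% in the knockout host.

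The remaining OTU enzymes differed little. Otud4, known for roles in RNA granules and in DNA alkylation repair, was the second most read gene of the class with 16525 and 15679 reads, a ratio of 1.06 (95% counting interval 1.03 to 1.08). Vcpip1, a p97-bound enzyme needed for Golgi reassembly, had 5340 and 5165 reads, a ratio of 1.08. Otud7b (Cezanne), which trims chains that drive NF-kB and cell cycle signals, had 7644 and 5986, a ratio of 0.873 (95% counting interval 0.844 to 0.903). For Otud6b, linked to protein synthesis, the reads were 2523 and 2049, a ratio of 0.905.

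The sequences before the starts of Yod1, Otud1 and Otub2 are shown because these OTU genes had the largest ratios of their family, on both sides. Each is the 250 bases before a RefSeq start site (GRCm38.p6, coordinates of that build), and capitals mark any match to a CCAAT box (CCAAT), GAS element (TTCNNNGAA), E-box (CACGTG), interferon-stimulated response element core or NF-kB core on either strand.
Yod1 chr1:130717077-130717326 plus strand: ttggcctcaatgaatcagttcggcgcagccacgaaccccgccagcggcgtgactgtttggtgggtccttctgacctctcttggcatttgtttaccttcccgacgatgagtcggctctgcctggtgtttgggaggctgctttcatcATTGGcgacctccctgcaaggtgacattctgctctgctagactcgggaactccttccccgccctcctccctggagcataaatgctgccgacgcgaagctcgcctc
Otud1 chr2:19657481-19657730 plus strand: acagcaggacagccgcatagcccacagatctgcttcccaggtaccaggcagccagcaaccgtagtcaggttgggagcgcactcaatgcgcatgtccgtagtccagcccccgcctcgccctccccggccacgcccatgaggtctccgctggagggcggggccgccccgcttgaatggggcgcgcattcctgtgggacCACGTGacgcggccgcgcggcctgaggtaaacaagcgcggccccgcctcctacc
Otub2 chr12:103388431-103388680 plus strand: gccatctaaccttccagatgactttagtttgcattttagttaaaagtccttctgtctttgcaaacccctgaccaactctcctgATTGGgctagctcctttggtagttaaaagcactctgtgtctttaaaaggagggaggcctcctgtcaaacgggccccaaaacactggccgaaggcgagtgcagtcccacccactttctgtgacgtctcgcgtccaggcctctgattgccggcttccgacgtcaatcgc
Yod1 holds a CCAAT box on the opposite strand 105 bases before its start, and Otud1 an E-box 54 bases before. Otub2 has 3 starts in RefSeq, and the stretch shown belongs to the first of the downstream pair, which lie 1 base apart. A CCAAT box lies there on the opposite strand, 167 bases before the start. Promoters of 300 bases (250 before and 50 after the start) matched 43 of the 56 genes, with 45 entries. CCAAT was in 26.7% of these and in 37.4% of all 32851 entries, and CACGTG in 15.6% (7 entries) and 7.15%. The GAS letters were found in 1 entry of the class (Usp50; 8.30% of all), the interferon-stimulated core in 1 (Usp49; 3.44% of all) and the NF-kB core in 1 (Cyld; 0.155% of all). These matches describe letters and not binding sites.

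Enzymes that act on NF-kB and innate immune signalling went both ways. Of the 9 in the table, 6 were above 0 and 3 below, with a median log2 read ratio of 0.21. Past 1.5-fold 2 of the 9 were higher, Otud1 and Usp2, and 0 were lower, beside 15.7% and 20.8% of all genes. With the trimmed mean of M-values 7 were above 0 and 2 below. Cyld, which removes linear and lysine-63 chains and ends NF-kB signals, had 6331 and 4427 reads, 1.28-fold lower (95% counting interval 1.23 to 1.33). Usp2 had only 92 and 206 reads, 2.50-fold higher (95% counting interval 1.94 to 3.23). Usp31, reported as an inhibitor of NF-kB, had 2433 and 2869, a ratio of 1.31. The relatives Usp4 and Usp15, which act on TGF-beta receptor and innate signalling, were both slightly higher, with 2716 and 2840 reads for Usp4 and 2132 and 2209 for Usp15. Their ratios of 1.17 and 1.16 have overlapping counting intervals (1.11 to 1.23 and 1.09 to 1.23). Usp25, a regulator of interferon and cytokine signalling, was the gene nearest to no difference, with 1474 and 1304 reads and a ratio of 0.986 (95% counting interval 0.915 to 1.06).

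Besides Yod1, the enzymes tied to p97 and to degradation at the endoplasmic reticulum showed small ratios. Atxn3 (ataxin-3), the Josephin enzyme mutated in a form of spinocerebellar ataxia, had 2659 and 3172 reads and was 1.33-fold higher (95% counting interval 1.26 to 1.40). It was the highest of the class below the 1.5-fold limit. Usp19, which has a form anchored in the endoplasmic reticulum, had 2529 and 2040 reads, a ratio of 0.899. Of the 6 listed genes of this group, 3 were above 0 and 3 below (4 and 2 with the trimmed mean of M-values). Of all genes 45.6% were above 0. Yod1 alone passed 1.5-fold, where 15.7% of all genes were higher and 20.8% were lower.

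At the proteasome, the bound enzymes with reversible docking went opposite ways. Usp14, which is bound to the proteasome base and releases chains before degradation, had 8106 and 5184 reads, 1.40-fold lower (95% counting interval 1.35 to 1.45). It was the lowest ratio among genes of the class with 5000 or more reads. The end of Usp14 shares 2424 bases with Thoc1 on the other strand, which had 2080 and 1265 reads. Uchl5 (UCH37), the other proteasome-bound enzyme, had 509 and 563 reads, a ratio of 1.23 (95% counting interval 1.09 to 1.39). Adrm1, the proteasome receptor that docks Uchl5, had 90 and 223 reads, a ratio of 2.76.

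Enzymes that recycle free ubiquitin were represented by Usp5 and Uchl3. Usp5, which takes apart unanchored chains, had 4224 and 4029 reads, a ratio of 1.06 (95% counting interval 1.02 to 1.11). Uchl3, which acts on small ubiquitin adducts and precursors, had 158.5 and 90 reads, 1.58-fold lower, with a wide interval (1.21 to 2.06). Its value in the wild-type-host library was not whole. Usp13 and Uchl1 were not analysed here.

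Enzymes that take ubiquitin off histones H2A and H2B went both ways. Of the 9 with 100 or more reads, 4 were above 0 and 5 below (5 and 4 with the trimmed mean of M-values), and 8 lay within 1.5-fold, as did 63.5% of all genes. Usp22, the deubiquitinating subunit of the SAGA complex, had 9517 and 8148 reads, a ratio of 0.955 (95% counting interval 0.927 to 0.983). Usp7, which protects MDM2, p53 and Polycomb proteins, had 5362 and 5750 reads, a ratio of 1.20 (95% counting interval 1.15 to 1.24). Bap1, a tumour suppressor that reverses H2A ubiquitination, had 1332 and 947 reads, 1.26-fold lower (95% counting interval 1.16 to 1.37). Usp36, a nucleolar enzyme, had 1317 and 1154 reads, a ratio of 0.977 (95% counting interval 0.902 to 1.06). Usp3 had 766 and 713 reads, a ratio of 1.04 (0.936 to 1.15), and Usp21 had 617 and 533 reads, a ratio of 0.963 (0.856 to 1.08). Usp16 and Usp48 had ratios of 0.929 and 1.06. The counting intervals of these 5 genes hold 1.

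Usp49, an H2B enzyme, was the 1 chromatin gene past 1.5-fold, with 319 and 525 reads and a ratio of 1.84 (95% counting interval 1.59 to 2.12). Its span shares 53172 bases with the predicted gene Gm20517 on the same strand, which had 78 and 271 reads, and its value in the wild-type-host library was not whole. Summed over both genes the ratio was 2.23 (95% counting interval 1.98 to 2.53). Reads of the pair cannot be told apart with certainty.

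Of the 7 enzymes of DNA damage responses and of the Wdr48 (UAF1) complexes 0 passed 1.5-fold, beside 15.7% higher and 20.8% lower of all genes, and 3 were above 0 and 4 below. Usp1, which deubiquitinates FANCD2 and PCNA, had 3140 and 3288 reads, a ratio of 1.17 (95% counting interval 1.11 to 1.23). The close relatives Usp12 and Usp46, which use the same cofactor, had 1801 and 1398 reads and 1611 and 1368 reads. Their ratios of 0.865 and 0.947 have overlapping intervals (0.806 to 0.929 and 0.880 to 1.02). Usp47, a regulator of base excision repair, had 7463 and 6238 reads, a ratio of 0.932 (95% counting interval 0.901 to 0.964). Usp28, a stabiliser of MYC and of p53 signalling, had 586 and 614, a ratio of 1.17. Usp28 is a relative of Usp25, named above.

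Endosomal and receptor-sorting enzymes were mostly on the higher side: 5 of 6 were above 0, against 45.6% of all genes, with a median log2 read ratio of 0.38. Stambp (AMSH), the JAMM protease that removes lysine-63 chains from receptors at endosomes, had 539 and 843.7 reads, the second value not whole. This is 1.75-fold higher (95% counting interval 1.57 to 1.95), and a difference of 0.39 in deposited log2 values. Usp8, its cysteine protease counterpart in the same sorting step, had 1688 and 1967 reads, a ratio of 1.30 (95% counting interval 1.22 to 1.39). Usp10, which returns cargo to the surface and acts on cytosolic p53, had 2410 and 2813, also 1.30 (1.23 to 1.37). Usp20 and Usp33, relatives that act on receptor recycling, had ratios of 1.19 and 0.935. The sixth gene is Usp2, named above. The adaptor genes Stam and Stam2, partners of Stambp and Usp8, had ratios of 1.16 and 0.739 and were picked after seeing their values.

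Of the enzymes linked to mitochondria and mitophagy, Usp35 was 2.04-fold higher on 142 and 260 reads (95% counting interval 1.66 to 2.52). Usp30, the enzyme anchored in the outer mitochondrial membrane that opposes Parkin, had 339.9 and 279 reads, the first value not whole. Its counting interval of 0.778 to 1.08 holds 1. The span of Usp30 shares 795 bases with Alkbh2 on the other strand, which had 116 reads and was listed at 0. Usp8 and Usp15, both also counted in groups above, complete this group of 4, of which 3 were above 0, beside 45.6% of all genes.

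Cell cycle enzymes included genes near the limit of detection. Of the 6 with 100 or more reads 2 were above 0 and 4 below, where 45.6% of all genes were above. With the trimmed mean of M-values 3 were above and 3 below. Usp37, which stabilises cyclin A, had 2627 and 1955 reads, a ratio of 0.830 (95% counting interval 0.782 to 0.880). Neither value was a whole number of reads. On the other strand its span shares 24785 bases with Cnot9, which had 3105 and 2911 reads, a ratio of 1.05. The span also shares 1397 bases with Plcd4. Ccna2, which encodes cyclin A2 and was picked after seeing its value, had a ratio of 0.535. Usp33 and Usp36 were close to 1, at 0.935 and 0.977. Usp29, a mostly germline and neural gene, had 98.6 and 8.7 reads, 10.2-fold lower, with an interval from 4.99 to 22.2. Usp44, a spindle checkpoint enzyme, was listed at 0 with the wild-type host and at 26 reads with the knockout host. Usp50 was listed at 0 and 11.8 reads, and 50202 bases of its span lie opposite Usp8, so no ratio is given for either.

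Usp39, Usp53 and Usp54, listed as 1 group, lay within 1.5-fold, as did 63.5% of all genes. Their ratios fell on both sides of 1. Usp39, a splicing factor with an inactive protease fold, had 829 and 902 reads, a ratio of 1.21 (95% counting interval 1.10 to 1.33). Usp53, linked to tight junctions, had 1944 and 1882, a ratio of 1.08, and Usp54 had 1088 and 745, a ratio of 0.763 (95% counting interval 0.695 to 0.839). Over the 4 enzymes tied to RNA processing (Usp39, Usp4, Usp15 and Usp49) all ratios were above 1, beside 45.6% of all genes. Usp4 and Usp15 are also counted with the NF-kB enzymes, and reads of Usp49 cannot be told apart with certainty from those of Gm20517.

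The class also holds 9 genes placed in no group. Usp34, a very large enzyme linked to Wnt signalling and the most read gene of the class, had 27135 and 21076 reads. Its ratio was 0.866 (95% counting interval 0.851 to 0.882). The span of Usp34 shares 2679 bases with Ahsa2 on the other strand, which had 508 and 322 reads. Usp24 and Usp32 had ratios of 0.875 and 0.936, Usp38 1.27, Usp42 0.801 and Usp40 0.715. Usp45, which acts on the repair nuclease ERCC1, had 2281 and 1298 reads, 1.58-fold lower (95% counting interval 1.47 to 1.69). It was the only gene on the lower side of 1.5-fold with more than 1000 reads. Its span shares 57 bases with Tstd3 on the other strand. Usp43 had the largest ratio on the higher side, 6.73-fold, but on 31 and 187 reads (95% counting interval 4.58 to 10.2). Otub2, also in this set, is described above.

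Levels between genes were compared per kilobase of exon, with exon lengths from GENCODE M21 (built on GRCm38) matched by gene identifier for all 56 genes. The highest were Otud4 at 86.2 and 91.2 RPM per kilobase of exon, Usp22 at 82.3 and 78.6, and Usp34 at 85.3 and 73.9. Usp14 followed at 65.8 and 46.9 and Usp5 at 50.4 and 53.6. The median of the class was 12.5, and 21 genes were under 10. The order was much the same in both libraries (Spearman's rho 0.95 across 56 genes, a description, since genes are not replicates). All 11 genes past 1.5-fold were outside the 18 genes at 20 or more, and 8 of the 11 were under 10.

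**Figure D3:**
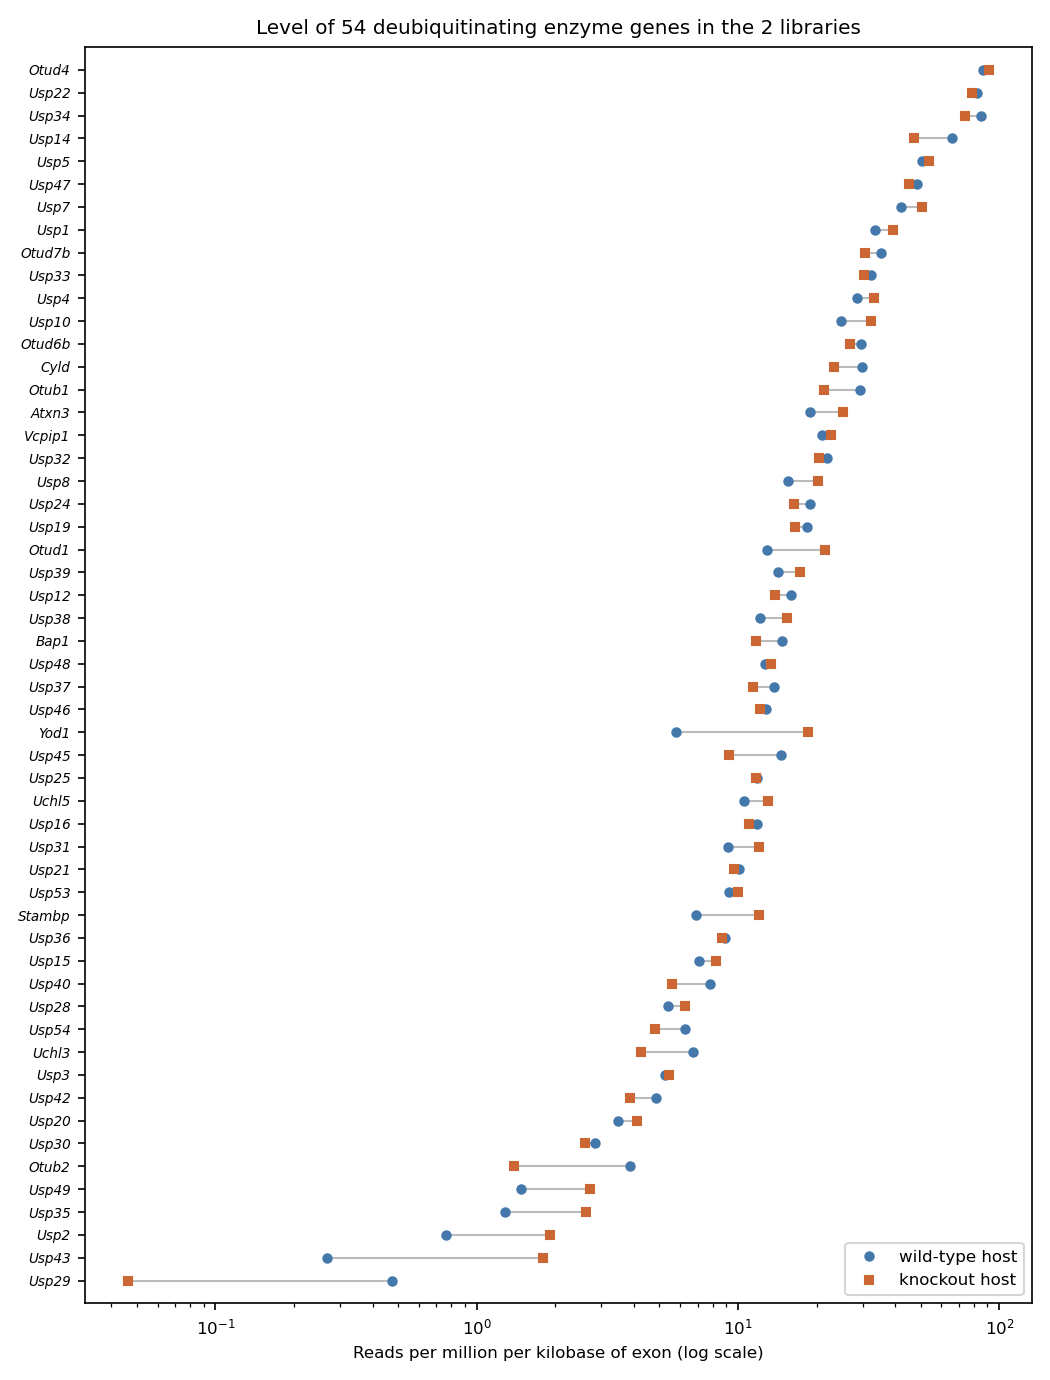
RPM per kilobase of exon (x axis, log scale) of 54 deubiquitinating enzyme genes in the wild-type-host library (blue circles) and the knockout-host library (orange squares), ordered by the mean of both. Usp44 and Usp50, listed at 0 in the wild-type host, are left out; the 5 genes at the top lie above 46 in both libraries, and the widest gaps are at the bottom and at Yod1.

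The deposited scale hides most of the larger ratios, since 23 of the 56 genes had a mean log2(FPKM + 1) under 1. Usp43 differed by 0.14 in deposited log2 values and by 2.75 in log2 read ratio. For Usp2 these values were 0.22 and 1.32, for Usp35 0.27 and 1.03, and for Otub2 -0.45 and -1.48. Yod1, with a short span of 7.03 kb, was at 1.5 and 1.68. The median difference of the 45 genes with a mean of 0.5 or more was -0.02 on the deposited scale, and -0.03 over all genes with that mean.

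**Figure D4:**
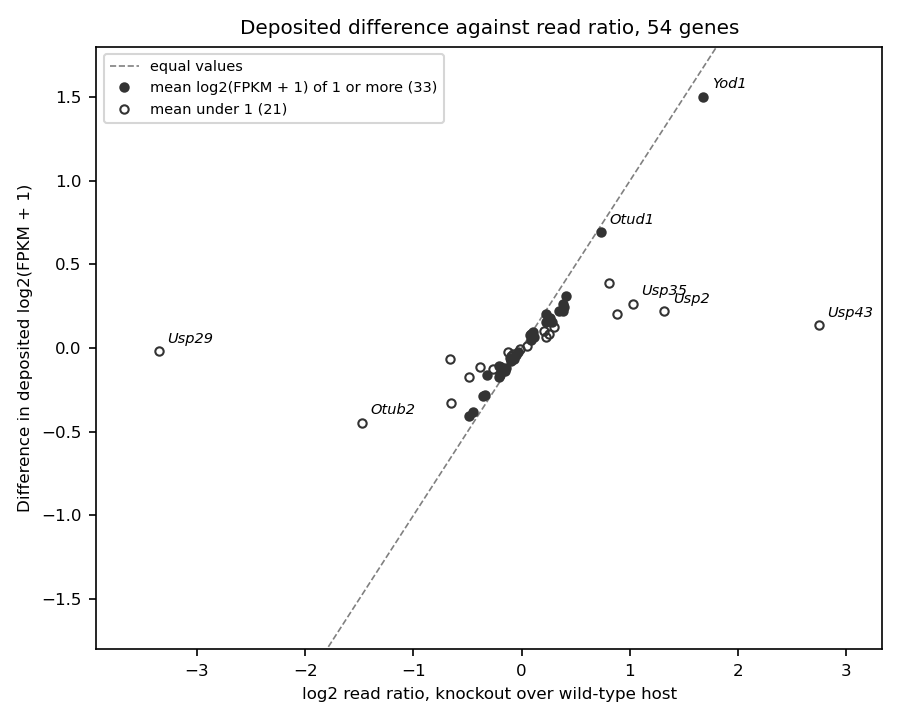
Difference in deposited log2(FPKM + 1) (y axis) against log2 read ratio (x axis), both knockout host minus wild-type host, for the 54 genes with 100 or more reads. Filled points are the 33 genes with a deposited mean of 1 or more, open points the 21 under 1; open points at large read ratios, such as Usp43 and Usp29, lie far from the dashed line of equal values.

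The genes that fit the name pattern but were left out differed among themselves. Usp18, the protease of the ubiquitin-like protein ISG15 and a known interferon target, had 417 and 1297 reads, 3.47-fold higher (95% counting interval 3.10 to 3.88). On the X chromosome, Usp9x had 31223 and 27658 reads, a ratio of 0.988 with a counting interval that holds 1, and Usp11 a ratio of 1.03. Otud5 was 1.66-fold higher with 593 and 882 reads, Brcc3 was at 0.757, and Usp27x was listed at 0 and 65 reads. A further list held deubiquitinating enzymes and related genes outside the class, X-linked genes included. The enzyme activity of its genes was not tested. Of its 26 genes with 100 or more reads, 3 were 2-fold higher and 1 was 2-fold lower, beside 8.39% and 11.3% of all genes. Tnfaip3 (A20), the OTU enzyme that ends NF-kB signals and was picked after seeing its value, had 16803 and 32827 reads, 2.18-fold higher. The 3 with the largest ratios had few reads: Otulinl 8 and 120, Josd2 52 and 397, and Otulin, which cuts linear chains, 108 and 16.

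Other genes of the ubiquitin pathway were taken from lists set with earlier results of these data known, and their 2-fold counts are to be read beside the 8.39% of all genes that were higher and the 11.3% that were lower. Among 22 cofactors of deubiquitinating enzymes, 1 was 2-fold higher and 2 were 2-fold lower: Adrm1, given above, Atxn7l2 with 460 and 145 reads and Abraxas1 with 443 and 179. Wdr48, the cofactor of Usp1, Usp12 and Usp46, was at 1.13, and Vcp, the p97 segregase that Yod1 serves, at 0.943, a pair picked after seeing their values. Of the 9 ubiquitin and E1 genes with 100 or more reads 0 passed 2-fold. The largest ratio there was 1.45 for the E1 enzyme Uba6, and Uba3 was at 1.18. Ubb, a ubiquitin gene picked after seeing its value, had 83561 and 80162 reads, a ratio of 1.07.

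Among 31 E2 enzymes 0 were 2-fold higher and 3 were 2-fold lower: Ube2s, which extends chains for the anaphase-promoting complex, with 1499 and 258 reads, Cdc34 with 251 and 58, and Ube2t with 455 and 178. Of 33 E3 ligases that members oppose, 1 was 2-fold higher, Birc3 at 2.05, and 2 were 2-fold lower, Bard1 at 0.375 and Keap1 at 0.396. Of the 9 SUMO and NEDD8 proteases 8 were below 0 and 1 above, where 45.6% of all genes were above. With the trimmed mean of M-values 6 were below and 3 above. Senp5 was at 0.450, Senp1 at 0.634 and Senp8 at 1.62. Of 27 genes listed as substrates or pathway genes of members, 2 were 2-fold higher (Cd274 at 4.17 and Axin1 at 2.28) and 1 was 2-fold lower (Keap1). By contrast all 5 genes of the ISG15 pathway were past 1.5-fold on the higher side (median log2 read ratio 1.08), with Uba7 at 2.85 and Isg15 at 2.11. Interferon gamma response genes were higher too, 11 of 12 by 2-fold or more, led by Igtp at 51.5, Iigp1 at 32.8 and Gbp3 at 12.6. Their median log2 read ratio was 2.27, beside -0.03 for the deubiquitinating enzymes. The interferon list was chosen with those values known.

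**Figure D5:**
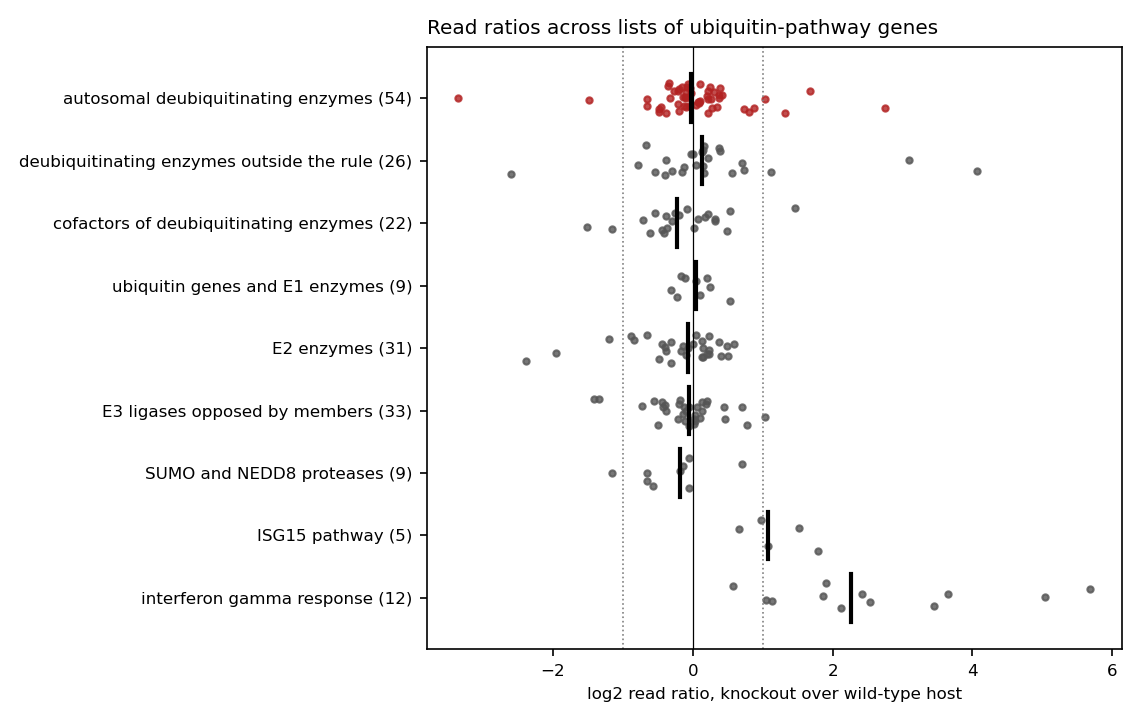
Log2 read ratio (x axis, knockout host over wild-type host) of each gene with 100 or more reads in the deubiquitinating enzyme class (red) and in 8 lists of related genes (grey), where bars mark the medians, numbers of genes are in parentheses and dotted lines mark 2-fold. The class is centred at -0.03, and the interferon gamma list at 2.27.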

How the data were processed

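RNA of CD45-negative cells was sequenced in 2 libraries, 1 per host genotype. The authors deposited log2 values, and the table's name describes them as log2 of FPKM + 1. STAR 2.7.8a, Partek and mm39 are named in the submitters' processing notes; no source used here gives the annotation release, strand handling or filters. The length column equals start to stop in 100% of rows, and FPKM times length sums to 1000000 per library. Low values fall on whole multiples of 1 step, from which reads were recovered: 84.9% and 83.4% of values under 1000 reads were whole within 0.1 read. The rest were not whole. The recovery was also run on simulated libraries with whole reads for every gene. These were built with the same formula, so the run cannot check the values that were not whole. Ratios were taken over genes with 100 or more reads and above 0 in both libraries; deposited differences were counted at a mean of 1 or more. With 1 library per group no p-value or standard error was computed. The members, lists and size rules were chosen with earlier results of these data known. Every gene of the class is accounted for: full values go to those past 1.5-fold, the 5 most read, the 5 nearest to 0 with 1000 or more reads and those listed at 0, and the 3 largest ratios of each list (1 of these is not reported here); other genes given values were picked after seeing them. Exon lengths came from GENCODE M21, another build (GRCm38), matched by gene identifier. Protein sequences were not used here, so close relatives were paired from general knowledge of the families. Analyses used Python 3.11.15, numpy 2.4.6, pandas 2.3.3, scipy 1.17.1 and matplotlib 3.10.9. Alternatives are given in the closing section.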

Additional observations from a re-analysis of the deposited data

How the results depend on the processing

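Of 56 alternative values of the counts and medians, 47 stayed within the main value's range (1.5 times for a count, the median counting half-width of 0.10 log2 for a median), and 9 moved. Both medians of the class lie close to 0 and changed sign: the deposited one, -0.02, in 6 of 7 alternatives (range -0.04 to 0.08) and that of the log2 read ratios, -0.03, in 3 of 7 (range -0.03 to 0.07). Each of the 3 other scalings raised every log2 ratio by a constant, 0.01 to 0.05. Read ratios of the 11 genes past 1.5-fold stayed within their counting intervals (33 values). This could not come out otherwise, since every such interval reaches further than these constants, so it is no check of single genes. The upper quartile was added for single genes after seeing the data. With 1000 or more reads required, 1 gene was 2-fold higher, 0 were 2-fold lower, 3 were 1.5-fold higher and 1 was 1.5-fold lower. Among genes with whole reads only, 0 were higher by 1 or more in deposited log2 values, since Yod1 is left out. In reads 1 was 2-fold lower, 4 were 1.5-fold higher and 2 were 1.5-fold lower. Usp49, Stambp, Uchl3 and Usp29 are left out there too. Without the 11 genes that share bases with another listed gene, an alternative chosen after seeing the data, 0 were higher by 1 or more in deposited values. Ratios of genes with under 1000 reads are limited by depth. No paired analysis was possible because each group has 1 library.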
